A study of Bos grunniens with 3 samples.

Results

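The fibroblast growth factor (FGF) and ERBB ligands, their receptors and the feedback inhibitors of the pathway were described in skin cells of the Tianzhu white yak in anagen, catagen and telogen. Members were the rows whose gene symbol was FGF, DUSP, NRG, SPRY, SPRED or ERBB followed by a number, began with FGFR and a number or L, or was EGF, EGFR, TGFA, HBEGF, EREG, BTC or ERRFI1, with AREG left out. This rule found 58 of the 26924 genes. They were 15 FGF ligands, 5 FGF receptors, 8 ERBB ligands, 3 ERBB receptors, 7 genes of the Sprouty, Spred and ERRFI1 group, 18 dual-specificity phosphatases (DUSPs), and FGFR1OP and FGFR1OP2, which match by name only and are neither ligands nor receptors. EGF and EGFR have no row under these symbols and were not analysed here.

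FGF ligands bind FGF receptors with heparan sulphate, and the EGF-like ligands bind ERBB receptors, which work in pairs. ERBB3 has little kinase activity of its own and signals through a partner such as ERBB2. Both receptor families feed the RAS-ERK cascade, which switches on its own brakes: Sprouty and Spred proteins act on RAS and RAF, ERRFI1 acts on ERBB kinases, and DUSP6 removes phosphate from ERK. In the hair follicle FGF5 is known as a signal that ends anagen, FGF18 as a signal of the resting follicle, and FGF7 as a ligand made by dermal cells that acts on FGFR2 of the epithelium.

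Each stage was represented by 1 single-cell library made with 10x Genomics 3' chemistry, from scapular skin of healthy animals of about 2 years, with no genetic change or treatment. Per the study's methods, hair follicles were pulled from the skin after dispase and taken apart with trypsin. These methods cover anagen and catagen only, and the study does not describe the telogen library. The study names 3 yaks without tying them to libraries, so how many animals a library holds is not known. The stage, the animal, the library and its processing cannot be told apart. In the telogen contrasts this holds also for any difference in how the cells were prepared. The protocol text of the catagen library names anagen, while its title and stage label say catagen.

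The 3 libraries held 12000, 12124 and 14573 cells and 82862998, 51647865 and 103511775 UMIs in anagen, catagen and telogen, and cells with under 200 genes were left out. The median cell had 5256, 3350 and 5583.5 UMIs, and the shallowest kept cell 2404, 500 and 500 UMIs. Pairs of libraries shared 40 to 49 cell barcodes. Clustering of all 3 libraries, without the members among the variable genes, gave 25 clusters, of which 15 carried the markers of 11 named classes and 10 stayed unnamed. The levels of the 3 hair cortex markers (summed) were 1001, 493 and 313 CPM (the usual scaling of UMIs to a common total per library or cluster) in anagen, catagen and telogen, those of the 5 mitotic markers 506, 488 and 339 CPM, and those of the 6 mesenchymal markers only 39.0, 1.05 and 5.09 CPM. Cluster 1, a shallow cluster, held 510, 738 and 2964 cells. The SPARC LHX2 follicle cells of cluster 7 carried their markers at only 2089 CPM against 1625 CPM in all other anagen cells. Since there was 1 library per stage, no test was made: differences were called at 2-fold or more, and the 95% intervals cover counting error only, not the difference between animals.

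Of the 58 members, 36 had a mean of at least 1 CPM and could be followed, 17 had some UMIs under that level, and 5 (DUSP21, FGF14, FGF4, FGF6 and SPRY3) had none in any library. Between catagen and anagen, 5 of the 36 were at least 2-fold higher in catagen, where 7.89% of the 10530 genes at that level were, and 3 were at least 2-fold lower, where 3.85% of all genes were. Between telogen and anagen 0 of 36 members were higher and 13 were lower in telogen, beside 3.08% and 10.1% of all genes. Between telogen and catagen 3 members were higher and 16 lower in telogen, beside 3.95% and 17.1% of all genes. The median gene itself differed by 0.15, -0.18 and -0.36 on the log2 scale in these contrasts, and the median member by 0.10, -0.61 and -0.59. All 3 contrasts share libraries, so they are not independent, and in a whole library fewer cells of a type and less RNA per cell cannot be told apart.

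**Figure D1:**
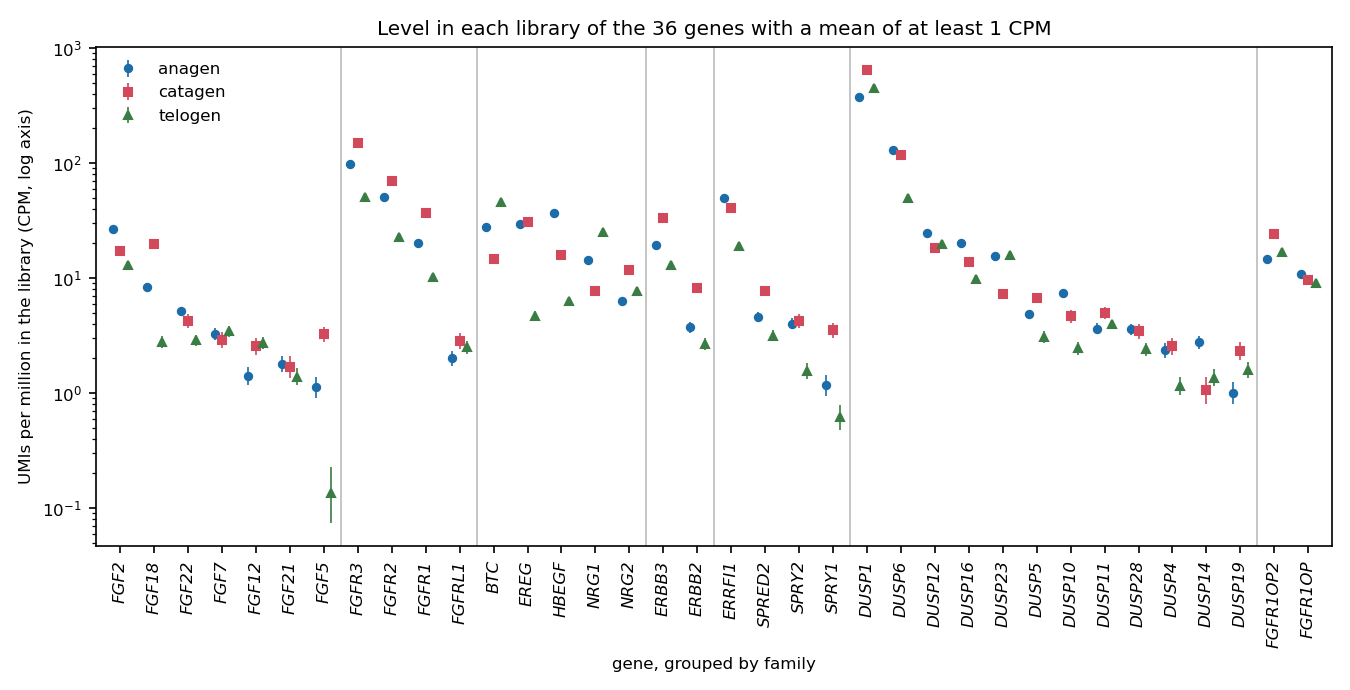
Level of each of the 36 members with a mean of at least 1 CPM, on a log axis, in the anagen (circle), catagen (square) and telogen (triangle) libraries, grouped by family; bars are 95% Poisson intervals for counting error. FGFR1, FGFR2 and FGFR3 lie highest in catagen and lowest in telogen, and FGF5 lies at 0.135 CPM in telogen.

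**Figure D2:**
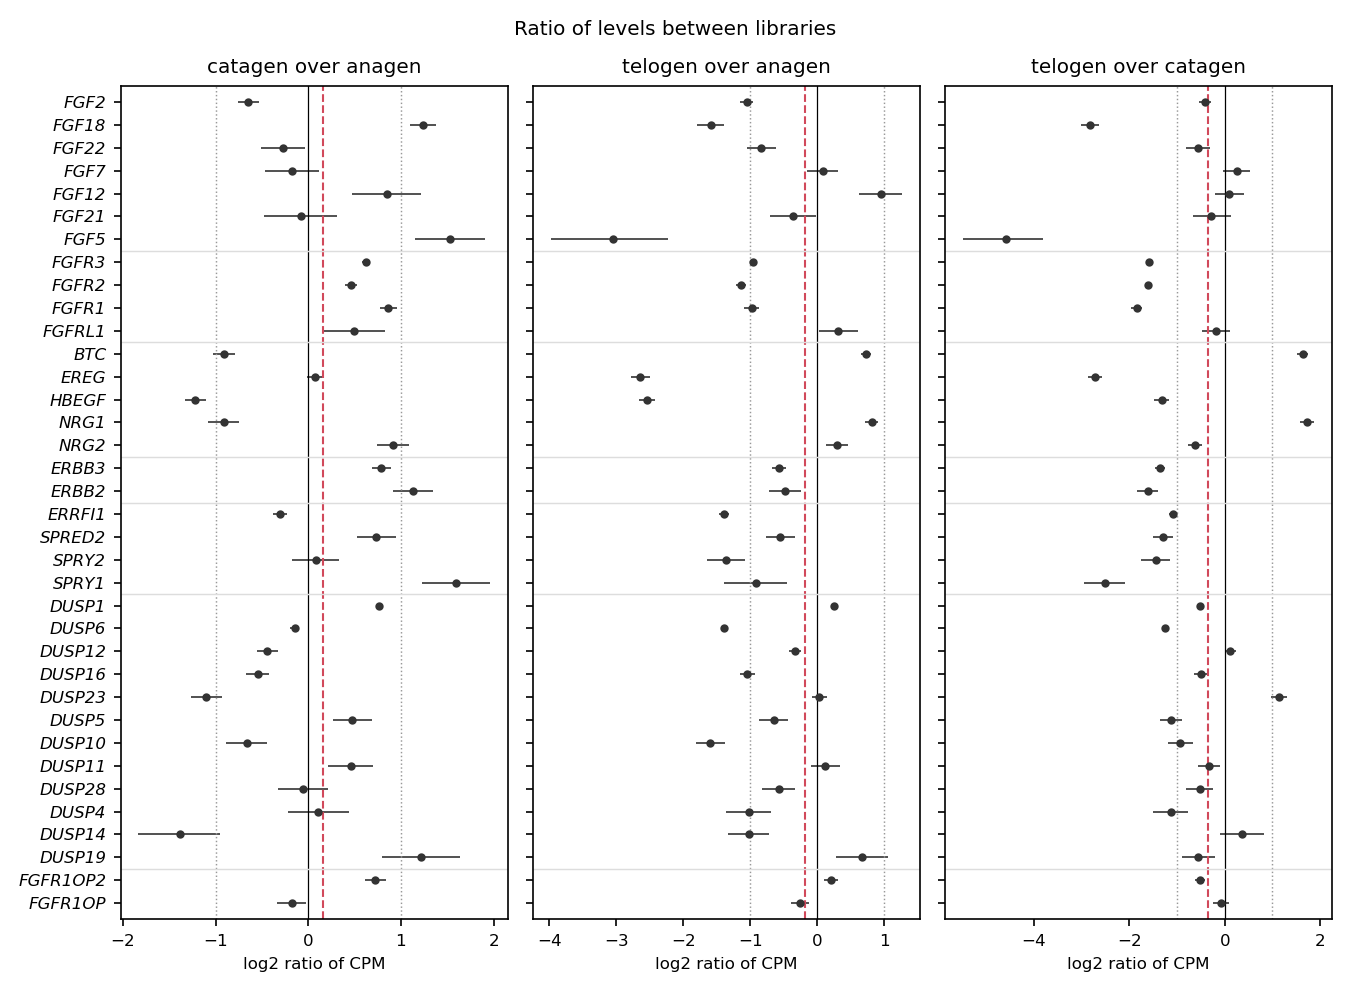
Log2 ratio of CPM for the same 36 members in each of the 3 contrasts, with 95% intervals for counting error; dotted lines mark 2-fold and the dashed line the median of all 10530 genes. In telogen over catagen 16 members lie at or beyond 2-fold on the lower side and 3 (BTC, NRG1 and DUSP23) on the higher side.

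Among the FGF ligands, FGF18 was highest in catagen. Its level was 8.38 CPM in anagen, 19.7 CPM in catagen and 2.78 CPM in telogen. Catagen was thus above both other stages, by 1.23 on the log2 scale over anagen (95% interval 1.09 to 1.38, and 1.08 relative to the median gene), and telogen stood at -2.82 (-3.02 to -2.63) against catagen. In catagen 79.4% of FGF18 UMIs came from cluster 16, where FGF18 reached 693 CPM. FGF18 was itself the leading gene of this unnamed cluster, although it was not used for clustering, and PMP22, IGFBP7 and KRT75 followed. The same cluster had 181 CPM in telogen and 639.8 CPM in anagen, but it held 386 cells in catagen, 168 in telogen and 46 in anagen. Outside cluster 16 the order of anagen and catagen turned: FGF18 was 6.80 CPM in anagen, 4.15 CPM in catagen and 1.43 CPM in telogen, a catagen over anagen log2 ratio of -0.71 (-0.95 to -0.48). The higher catagen level of FGF18 was thus seen only with cluster 16 counted, whose cell number differed between libraries. Kept anagen cells had at least 2404 UMIs, and those of catagen at least 500. With the anagen minimum required in every library, the catagen over anagen ratio of FGF18 was 0.97. With at least 1000 genes per cell it was 0.94, so neither passed 2-fold. Whether the depth of the kept cells bears on the cell number of cluster 16 was not tested.

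Inside the SPARC LHX2 follicle cells of cluster 14, marked by CLDN10 and LGR5, FGF18 went from 126 CPM in anagen to 36.9 CPM in catagen and 28.8 CPM in telogen. For shares of cells, cells under 1500 UMIs were left out and the others were thinned to 1500 UMIs each. Of the cells left in, 52.4% in catagen cluster 16 had a UMI of FGF18 (46.7 to 58.1). In the suprabasal cells of cluster 0 the share was 0.0699% (0.00177 to 0.389), the median depths being 2814 and 5381 UMIs. In telogen these shares were 14.4% (9.13 to 21.1) and 0.0678% (0.00172 to 0.377), at median depths of 4213 and 8266 UMIs. These are the libraries where cluster 16 held over 50 cells. The cluster was picked for its high FGF18 level, so the gap to the suprabasal cells followed from that choice and tests nothing.

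FGF5 followed the same order of stages at lower counts. It was 1.12 CPM in anagen, 3.24 CPM in catagen and 0.135 CPM in telogen, from 93, 167 and 14 UMIs. Catagen lay 1.53 above anagen on the log2 scale (1.15 to 1.91, and 1.37 relative to the median gene) and telogen stood at -4.58 (-5.48 to -3.79) against catagen. FGF5 had its highest level in cluster 14 in every library, with 16.5, 27.3 and 2.88 CPM in anagen, catagen and telogen. The KLK SPINK keratinocytes of cluster 18 came next in anagen and catagen, with 11.1 and 19.5 CPM, and their intervals overlapped those of cluster 14. With the cluster makeup held equal, FGF5 was also higher in catagen, by 1.52. FGF18 stood at -0.54 in that setting, but the setting leaves out cluster 16, so the 2 genes are not compared alike.

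FGF2 lay mainly in the inner root sheath at all stages. Cells of the inner root sheath (cluster 13) had 247 CPM in anagen, 221 CPM in catagen and 269 CPM in telogen, and held 57.7, 53.8 and 49.5% of all FGF2 UMIs. These levels stood apart from the next cluster in each library, and the stages differed little within the sheath. Over the whole library FGF2 was 26.7, 17.1 and 12.9 CPM, and telogen stood at -1.06 (-1.15 to -0.96) against anagen. Relative to the median gene this was -0.87, under 2-fold. The inner root sheath made up 4.83, 2.03 and 0.979% of cells and gave 6.25, 4.15 and 2.37% of all UMIs. With the cluster makeup held equal the FGF2 ratio of telogen to anagen was -0.16, while outside the sheath it was -0.86 (-1.01 to -0.72).

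FGF22, which like FGF7 acts on the epithelial form of FGFR2, and FGF21, an endocrine FGF, shared the inner root sheath and the hair cortex. FGF22 was 5.13, 4.25 and 2.88 CPM in the anagen, catagen and telogen libraries. In the inner root sheath FGF22 had 27.2, 35.1 and 11.9 CPM, and in the hair cortex (cluster 15) 27.3, 23.3 and 13.03 CPM. In telogen the KRT23 CA6 cells of cluster 11 had 14.3 CPM of FGF22, within the interval of the hair cortex. FGF21 was at 1.79, 1.69 and 1.39 CPM, and was at least 2-fold higher in both classes than in all other cells in each library. FGF12, an FGF that stays inside the cell, was 1.41, 2.54 and 2.72 CPM and was at least 2-fold higher in the basal and epidermal keratinocytes of cluster 6 than in other cells, with 4.53, 8.08 and 10.4 CPM. Its telogen over anagen ratio of 0.94 became 1.12 relative to the median gene.

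FGF7 was nearly level across the libraries, with 3.26 CPM in anagen, 2.89 CPM in catagen and 3.44 CPM in telogen. Among clusters of at least 50 cells, its highest level was in cluster 21, led by COL1A2, VIM and PECAM1, with 102, 72.8 and 38.9 CPM, though from only 50, 8 and 11 UMIs. That cluster carried both mesenchymal markers (6285, 227 and 1019 CPM, summed) and endothelial markers (1749, 1938 and 2380 CPM). The larger source was cluster 5, led by FST and EMP3, which held 37.4, 47.0 and 48.6% of FGF7 UMIs at 17.6, 21.7 and 33.4 CPM. In cluster 5 the 6 mesenchymal markers summed to 1.22, 0.619 and 5.21 CPM, with COL3A1 at 0 in all 3 libraries, so these FGF7 counts lay in cells with nearly no UMIs of the defining mesenchymal markers.

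**Figure D3:**
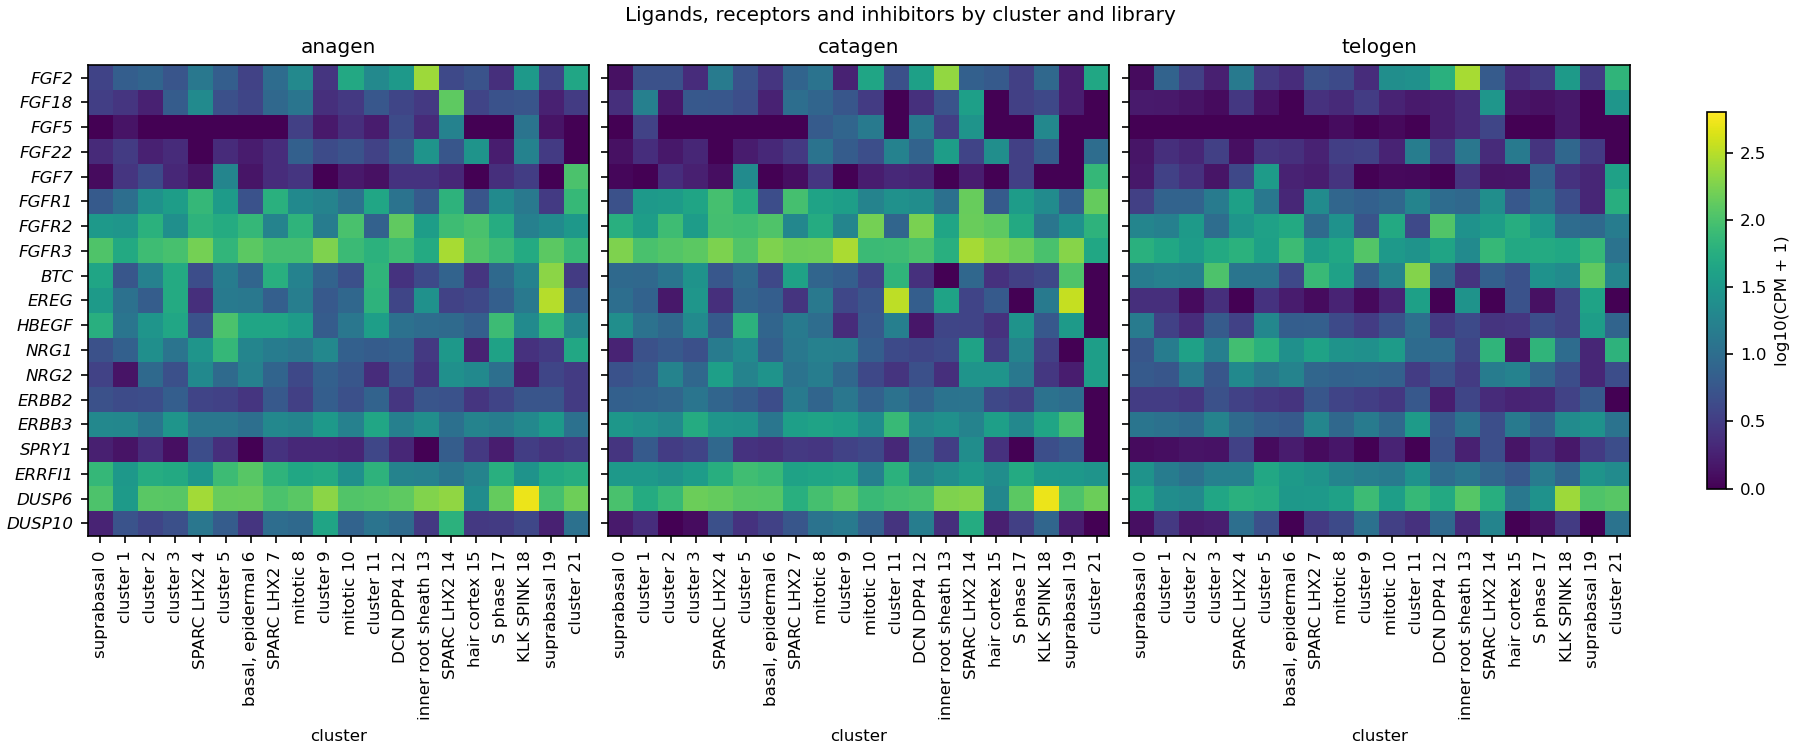
Level of ligands, receptors and inhibitors, as log10(CPM + 1), in the clusters that held at least 50 cells in every library, with 1 panel per library. FGF2 stands out in the inner root sheath and DUSP6 in the KLK SPINK keratinocytes in all 3 panels, while EREG is darker, and so lower, in most clusters of the telogen panel.

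The FGF receptors with a kinase that could be followed shared 1 order of stages, which was also the order of the median gene. FGFR3 was 97.4 CPM in anagen, 150.1 CPM in catagen and 50.3 CPM in telogen. FGFR2 was 50.5, 69.7 and 23.0 CPM, and FGFR1 20.3, 37.0 and 10.3 CPM. All 3 were highest in catagen and lowest in telogen. Telogen stood at -1.58 (-1.63 to -1.53) for FGFR3, -1.60 (-1.68 to -1.53) for FGFR2 and -1.85 (-1.95 to -1.74) for FGFR1 against catagen, which is -1.22, -1.25 and -1.49 relative to the median gene. Against anagen the telogen ratios were -1.14 for FGFR2, -0.95 for FGFR3 and -0.98 for FGFR1. FGFR2 alone passed 2-fold there, and no longer did so relative to the median gene (-0.96) or with the cluster makeup held equal (-0.84). FGFRL1, a receptor without a kinase domain, did not share this: it was 2.00, 2.83 and 2.49 CPM, and its telogen over catagen ratio of -0.18 became 0.17 relative to the median gene.

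The same order held inside the clusters. Telogen was below catagen in 21 of the 21 clusters compared for each of FGFR1, FGFR2 and FGFR3, with the interval below 0 in 17, 18 and 20 of them. Catagen was above anagen in 17, 18 and 18 of 21 clusters for the 3 receptors. The lower telogen level was thus seen in all compartments compared, and with the cluster makeup held equal the telogen over catagen ratios were -1.80, -1.34 and -1.48. All these clusters come from the same libraries, where the median gene itself stood at -0.36 in telogen over catagen. The counts of clusters given here and below take no account of that shift, and no matching count over all genes was made. Thinning gave the same order for FGFR3 among cells of at least 1500 UMIs, each thinned to 1500. Of these, 13.8% of anagen cells (13.2 to 14.4), 19.02% of catagen cells (18.2 to 19.8) and 7.59% of telogen cells (7.11 to 8.09) had a UMI. Median depths before thinning were 5256, 4008 and 6810 UMIs. No kept anagen cell had under 2404 UMIs, so none was left out there, while the catagen and telogen shares are of their deeper cells. In the sebaceous and lipid cells, the lowest anagen cluster, the share was 8.93% (5.54 to 13.4) at a median depth of 4290 UMIs. The telogen share over all cells left in fell inside that interval, but the sebaceous and lipid cells are of another library and were not shown to lack FGFR3. Free RNA was not removed from the counts, and whether the telogen share stands above it was not tested.

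By compartment the 3 receptors differed. FGFR1 was at least 2-fold higher in the SPARC LHX2 follicle cells than in all other cells of each library. Their cluster 4 had 72.1, 93.3 and 37.8 CPM of FGFR1 and cluster 14 had 63.1, 141 and 23.1 CPM. The COL1A2 VIM PECAM1 cells of cluster 21 had 73.2, 136 and 56.6 CPM, the highest in anagen and telogen, with intervals that overlapped those of cluster 4. FGFR1 was low in the suprabasal cells of cluster 19 at 2.01 CPM in anagen. FGFR2 was highest in the DCN DPP4 cells of cluster 12, with 131, 171 and 107 CPM, and in anagen and catagen next in the mitotic cells of cluster 10, with 98.9 and 162 CPM. Cluster 12 also carried S-phase genes such as MCM5 and UHRF1, and FGFR2 was lowest in cluster 11 in every library, at 3.19 to 7.10 CPM. FGFR3 reached 268 CPM in anagen cluster 14 and 319 CPM in catagen cluster 16, and stood at 179, 278 and 112 CPM in cluster 9, led by TPM1 and S100A2. The lowest clusters of FGFR3 had 35.2 CPM in anagen, 20.7 CPM in catagen from 6 UMIs and 10.6 CPM in telogen from 3 UMIs.

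The ERBB ligands split into those lower in telogen and those higher in telogen. EREG, the ligand epiregulin, was 29.3 CPM in anagen, 30.9 CPM in catagen and 4.71 CPM in telogen, and HBEGF, heparin-binding EGF-like growth factor, was 37.1, 15.9 and 6.37 CPM. BTC, betacellulin, was 27.6, 14.7 and 45.4 CPM, and NRG1, a neuregulin that binds ERBB3 and ERBB4, was 14.5, 7.68 and 25.4 CPM. EREG and HBEGF were thus lowest in telogen, where BTC and NRG1 were highest.

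For EREG the telogen ratio was -2.64 (-2.78 to -2.50) against anagen and -2.71 (-2.86 to -2.57) against catagen, and anagen and catagen differed by 0.07 (-0.02 to 0.17), which became -0.08 relative to the median gene. HBEGF stood at -1.22 (-1.33 to -1.11) in catagen over anagen and -2.54 (-2.66 to -2.42) in telogen over anagen. BTC in telogen was 1.63 (1.52 to 1.74) above catagen and 0.72 above anagen, and NRG1 was 1.72 (1.57 to 1.88) and 0.81 above. Neither of these 2 passed 2-fold against anagen. These ratios kept their sign relative to the median gene, at -2.46 for EREG and -2.36 for HBEGF in telogen over anagen, and at 0.90 for BTC and 0.99 for NRG1. NRG2 was 6.29, 11.8 and 7.69 CPM and did not pass 2-fold in any contrast. Inside clusters, HBEGF was lower in telogen than in anagen in 20 of 20, EREG in 18 of 20, and NRG1 was higher in 17 of 20. BTC went both ways, higher in 12 and lower in 8 of the 20. With the cluster makeup held equal, its telogen over anagen ratio was 0.44.

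EREG was high in cluster 19 of the suprabasal epidermis, but the class as a whole was not at least 2-fold higher in every library. The smaller cluster 22 had more EREG in anagen and telogen, at 364 and 89.8 CPM. Suprabasal cells of cluster 19, marked by KRT77 and KRT2, had 306 CPM of EREG in anagen, 361 CPM in catagen and 40.9 CPM in telogen, and this was the highest cluster of at least 50 cells in each library. Cluster 11 had 64.1, 328 and 38.1 CPM of EREG, and its interval overlapped that of cluster 19 in catagen and telogen but not in anagen. Cluster 19 held 31.4, 32.7 and 8.42% of EREG UMIs, and cluster 11 held 8.19, 37.8 and 51.5%. After thinning to 1500 UMIs, 32.3% of anagen cells of cluster 19 (26.5 to 38.4) had a UMI of EREG against 0.586% of SPARC LHX2 cells of cluster 4 (0.121 to 1.70), with median depths of 10000 and 3603 UMIs. In telogen the share in cluster 19 was 8.0% (2.99 to 16.6).

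BTC was highest in cluster 19 in anagen and catagen, with 207 and 106 CPM, and in cluster 11 in telogen, with 190.0 CPM. Telogen had more BTC than anagen in cluster 11 (190.0 against 67.6 CPM) and in the KRT79 KRT17 cells of cluster 3 (103 against 49.98 CPM). It had less in the suprabasal cells of cluster 0 (13.9 against 43.4 CPM). Cluster 3 held 954, 731 and 1865 cells, and gave 14.3, 13.6 and 40.0% of all BTC UMIs. The SPARC LHX2 cells of cluster 7 also carried BTC, at 57.8, 39.6 and 77.3 CPM.

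Among clusters of at least 50 cells, HBEGF was highest in cluster 5 in anagen (99.8 CPM) and in cluster 19 in telogen (34.9 CPM). In catagen it was highest in the sebaceous and lipid cells of cluster 20 (235 CPM, from 68 UMIs in 53 cells). Cluster 20 had 83.8 CPM in anagen (69.0 to 100.9), which overlapped cluster 5. In telogen it held 44 cells and was left out, so a change of the highest cluster with stage was not shown. In cluster 5 HBEGF went from 99.8 to 61.6 and 18.9 CPM over the 3 stages. The early genes FOS, JUN, EGR1, EGR2 and IER3 summed to 5900.1, 8156 and 4414 CPM in cluster 5, beside 4199.6, 5463 and 2300.3 CPM in the whole libraries, and their part in the HBEGF level was not tested.

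NRG1 was highest in cluster 5 in anagen (71.7 CPM) and in cluster 14 in catagen (40.3 CPM). In telogen it was highest in the SPARC LHX2 cells of cluster 4, marked by C3 and FAM13A (88.1 CPM). In none of the libraries did its interval stand clear of the next cluster. Cluster 4 had 27.7 CPM of NRG1 in anagen and 13.6 CPM in catagen. Among cells of at least 1500 UMIs thinned to 1500, 11.1% of telogen cells of cluster 4 had a UMI of NRG1 (8.72 to 13.8), against 2.73% in anagen (1.503 to 4.54). In the telogen hair cortex 0 of 144 cells had one. Allowing up to 3 cells for a count of 0, in place of an exact interval, the share of cells with a UMI is up to 2.08%. This sets no limit on cells that express NRG1. Median depths were 4111 UMIs in telogen cluster 4 and 11500 UMIs in the telogen hair cortex. NRG2 shared clusters 4 and 14, with 20.4, 36.8 and 20.4 CPM in cluster 4, and was also at least 2-fold higher in the basal and epidermal keratinocytes and the hair cortex than in other cells.

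**Figure D4:**
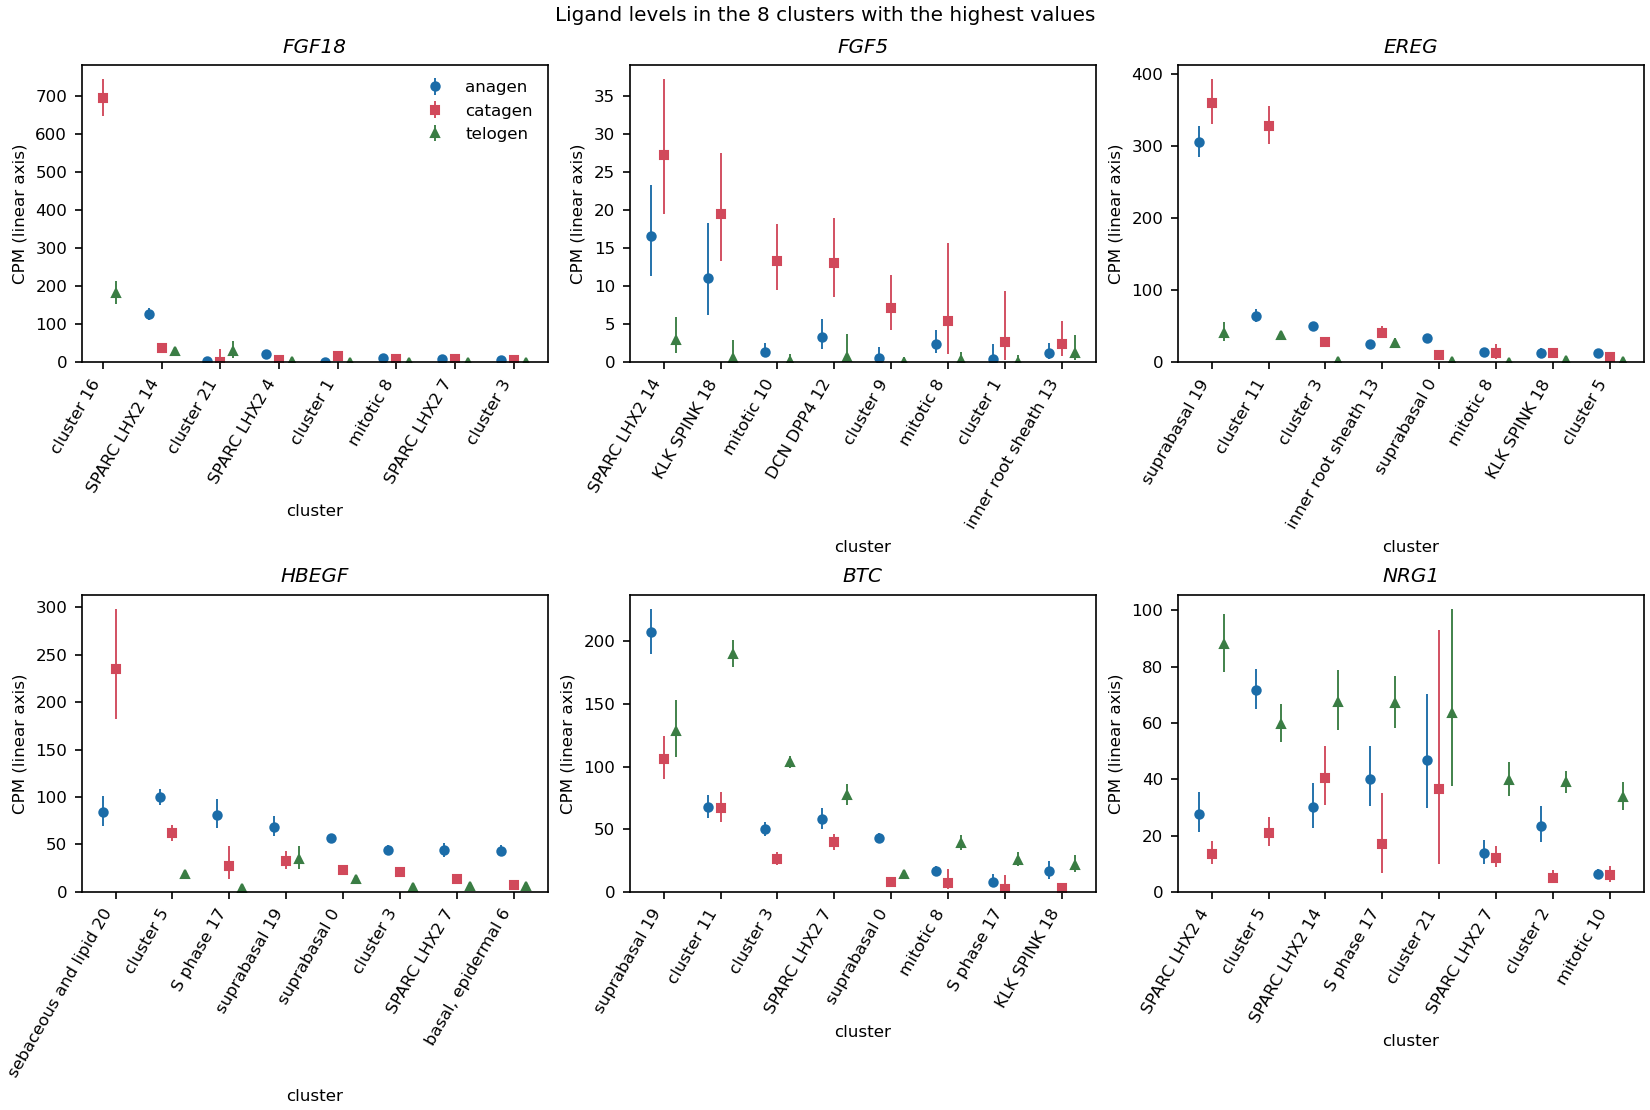
Level (CPM, linear axis) of FGF18, FGF5, EREG, HBEGF, BTC and NRG1 in the 8 clusters with the highest value of each, for anagen (circle), catagen (square) and telogen (triangle), with 95% Poisson intervals; clusters are drawn only where they held at least 50 cells, so cluster 16 has no anagen point. FGF18 stands at 693 CPM in catagen cluster 16, EREG at 361 CPM and 328 CPM in catagen clusters 19 and 11, and NRG1 at 88.1 CPM in telogen cluster 4.

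The ERBB receptors had the same order of stages as FGFR1, FGFR2, FGFR3 and the median gene. ERBB3 was 19.3 CPM in anagen, 33.3 CPM in catagen and 12.98 CPM in telogen. ERBB2, the partner without a ligand of its own, was 3.72, 8.13 and 2.66 CPM. Both were highest in catagen and lowest in telogen, at -1.36 (-1.46 to -1.25) for ERBB3 and -1.61 (-1.84 to -1.39) for ERBB2 in telogen over catagen. ERBB2 was 1.13 (0.91 to 1.35) higher in catagen than in anagen, and 0.97 relative to the median gene. ERBB3 was below catagen in telogen in 20 of 21 clusters and ERBB2 likewise in 20 of 21. Among clusters, ERBB3 was highest in cluster 11 in anagen (44.7 CPM), cluster 19 in catagen (89.96 CPM) and cluster 16 in telogen (34.7 CPM), and in none of these did its interval stand clear of the next cluster. Clusters 11 and 19, which led in EREG, thus also led in ERBB3 in anagen and catagen. ERBB4 had 21, 61 and 3 UMIs in the 3 libraries, at 0.254, 1.18 and 0.0290 CPM, and its mean was under 1 CPM. From these few UMIs its ratio was 2.22 (1.49 to 3.01) in catagen over anagen. In telogen over catagen it was -5.35 (-7.67 to -3.74).

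The feedback inhibitors were lower in telogen than in catagen for all 4 that could be followed. ERRFI1 was 50.2, 40.5 and 19.1 CPM in anagen, catagen and telogen, SPRY2 4.02, 4.25 and 1.57 CPM, SPRED2 4.61, 7.68 and 3.14 CPM, and SPRY1 1.17, 3.53 and 0.619 CPM. In telogen over catagen the ratios were -1.09 (-1.18 to -1.0), -1.44 (-1.74 to -1.14), -1.29 (-1.51 to -1.07) and -2.51 (-2.95 to -2.09). Relative to the median gene they were -0.73, -1.08, -0.93 and -2.16, so ERRFI1 and SPRED2 no longer passed 2-fold. The 4 genes differed in anagen against catagen: SPRY1 was 1.59 (1.23 to 1.96) higher in catagen, SPRED2 0.74 higher, SPRY2 at 0.08 (-0.07 relative to the median gene), and ERRFI1 at -0.31. ERRFI1 was highest in the basal and epidermal keratinocytes in anagen (117 CPM) and in cluster 5 in catagen and telogen (86.3 and 47.1 CPM), and was lower in telogen than in anagen in 20 of 20 clusters. SPRY1 reached 22.5 CPM in catagen cluster 14, where FGFR1, FGF5 and DUSP10 were also high.

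Of the 12 DUSPs that could be followed, DUSP1 and DUSP6 were the best counted. DUSP6, the phosphatase of ERK, was 130.2 CPM in anagen, 118 CPM in catagen and 49.8 CPM in telogen, a telogen over anagen ratio of -1.39 (-1.43 to -1.34). It was highest in the KLK SPINK keratinocytes of cluster 18 in every library, with 519, 526 and 243 CPM, and at least 4-fold higher there than in all other cells. DUSP6 was lower in telogen than in anagen in 19 of 20 clusters. DUSP1, an early-response phosphatase that acts mainly on stress kinases, ran differently: it was 379, 641 and 448 CPM and passed 2-fold in no contrast. Over the clusters of at least 50 cells, DUSP1 was highest in anagen in cluster 2 (831 CPM) and above 1000 CPM in catagen clusters 6 and 5 (1249 and 1161 CPM) and telogen cluster 5 (1008 CPM).

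DUSP10, which acts on JNK and p38, was 7.41, 4.68 and 2.46 CPM, and was highest in cluster 14 at 62.0, 51.9 and 17.3 CPM, which gave 19.5, 31.5 and 16.5% of its UMIs. Cluster 9 was also at least 2-fold above other cells in each library, with 42.7, 13.1 and 10.2 CPM of DUSP10. DUSP16 was 20.2, 13.8 and 9.78 CPM, with its highest level in the KLK SPINK keratinocytes at all stages (42.9, 44.4 and 45.8 CPM). DUSP16 was thus lower in the telogen library at -1.04 (-1.16 to -0.93) against anagen while its level in that cluster stayed the same within the intervals. Relative to the median gene this ratio was -0.86 and no longer passed 2-fold. DUSP23 was 15.6, 7.26 and 15.9 CPM, lowest in catagen, and was the only DUSP at least 2-fold higher in telogen than in catagen, at 1.13 (0.97 to 1.30). DUSP14 was 2.78, 1.07 and 1.36 CPM, DUSP19 1.002, 2.33 and 1.59 CPM, DUSP4 2.35, 2.54 and 1.16 CPM, and DUSP5 4.83, 6.71 and 3.07 CPM. DUSP4 was highest in the sebaceous and lipid cells in anagen, with 44.2 CPM from 59 UMIs. DUSP12 was 24.9, 18.3 and 19.8 CPM and, with DUSP11 and DUSP28, did not pass 2-fold.

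FGFR1OP, a centrosomal protein gene, was 10.9, 9.60 and 9.10 CPM and was raised in mitotic cells, and FGFR1OP2 was 14.6, 24.1 and 16.8 CPM. Neither passed 2-fold between libraries. The members with a mean under 1 CPM held textbook ligands of the follicle. FGF10, the dermal papilla ligand, had 3, 0 and 1 UMIs, TGFA 13, 12 and 22, FGF20 1, 0 and 0, and FGFR4 0, 1 and 0. At 0 to 3 UMIs per library, no difference in FGF10, FGF20 or FGFR4 was detectable at this depth. The others with a mean under 1 CPM had 0 to 68 UMIs per library.

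Counting each member once, 18 of 36 were at least 2-fold higher in some named class than in all other cells in every library with at least 50 cells of it, beside 26.1% of the 10530 genes. The members in more than 1 such class were FGF5, FGF12, FGF21, FGF22 and NRG2. Among clusters of at least 50 cells, the highest was the same in all 3 libraries for 8 members: EREG, FGF2, FGF5, FGF7, FGFR2, DUSP6, DUSP10 and DUSP16. Of these, only FGF2 and DUSP6 stood clear of the next cluster's interval in each library. The matching share of all genes was not worked out. In the smaller cluster 22, EREG was higher still in anagen and telogen, at 364 and 89.8 CPM. SPARC LHX2 follicle cells were the class with the most members at least 2-fold higher, 4 (DUSP10, FGFR1, FGFRL1 and SPRY1), beside 4.20% of all genes. Classes with 3 were the KLK SPINK keratinocytes (DUSP6, DUSP16 and FGF5, beside 3.37% of all genes), the basal and epidermal keratinocytes (DUSP23, FGF12 and NRG2, beside 1.63%), the inner root sheath (FGF2, FGF21 and FGF22, beside 2.15%), the hair cortex (FGF21, FGF22 and NRG2, beside 4.83%) and the sebaceous and lipid cells in anagen and catagen (DUSP4, FGF12 and HBEGF, beside 3.12%). The DCN DPP4 cells had 2 (FGF5 and FGFR2, beside 5.95%), the S-phase cells 1 (NRG1, beside 2.02%) and the mitotic cells 1 (FGFR1OP, beside 5.69%). Suprabasal epidermis as a class had 0, beside 1.2% of all genes, although EREG and BTC were at least 2-fold higher in cluster 19 taken alone. In unnamed cluster 5, 4 members (DUSP4, FGF7, HBEGF and NRG1) were at least 2-fold higher, where 0.94% of all genes were. Unnamed clusters 11 (BTC, DUSP5, ERBB3 and EREG, beside 3.87%) and 21 (FGF7, FGFR1, FGFRL1 and NRG1, beside 6.39%) also had 4 each. The 3 members of the KLK SPINK keratinocytes were lost at both other clustering resolutions, and all but FGFR1 of the SPARC LHX2 members at the finer one. The list of members was chosen with results of these data known, so these counts describe it and test nothing.

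Other genes of the pathway were taken from a list of 61, of which 55 had a row and 48 reached 1 CPM. In catagen over anagen 6 of 48 were higher and 2 lower, in telogen over anagen 1 was higher and 10 lower, and in telogen over catagen 0 were higher and 17 lower, beside the shares of all genes given above. The list medians were 0.33, -0.40 and -0.60, against 0.15, -0.18 and -0.36 for all genes. In the ERK-responsive part of the list, 7 of 11 genes were at least 2-fold lower in telogen than in anagen, beside 10.1% of all genes. Against catagen 7 of 11 were, beside 17.1% of all genes. The medians were -1.08 and -1.32, or -0.90 and -0.97 relative to the median gene. The list was written with earlier results of these data known, and ERK activity itself was not tested. PHLDA1, a target of the ERK cascade, was 9.20, 3.49 and 2.55 CPM, and SRF, a transcription factor, 2.99, 4.68 and 0.880 CPM. SDC4, a heparan sulphate co-receptor, was 81.5, 29.8 and 21.8 CPM, and was the lowest in catagen over anagen at -1.45 and in telogen over anagen at -1.90.

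The ERK-responsive list was not uniform. CCND1, cyclin D1, was 61.5, 143 and 57.3 CPM, ETV5 1.40, 2.46 and 0.657 CPM, and EGR1 106, 171 and 50.1 CPM, all highest in catagen, while ETV4, at 13.2, 8.15 and 10.1 CPM, was not lower in telogen than in catagen. In catagen over anagen the highest ratios of the whole list were those of FLRT3 (1.33), a membrane protein that binds FGF receptors, LRIG3 (1.29), a transmembrane protein of the LRIG family, and FGFBP1 (1.25), a carrier of FGFs. FRS3, an adaptor of FGF receptors, was the only gene of the list at least 2-fold higher in telogen than in anagen, at 0.676, 1.47 and 1.65 CPM. HRAS and PTPN11 passed 2-fold in no contrast.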

How the data were processed

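The authors deposited raw UMI counts per gene and cell barcode, with no normalization, for 1 library per stage. Per the study's methods, which cover anagen and catagen only, reads were aligned with STAR in Cell Ranger, which also corrected and counted UMIs. The labels name Cell Ranger 2.1.1, and the file headers name 4.0.0 (anagen), 3.1.0 (catagen) and 6.0.2 (telogen). The genome build is not given in the sources used here, so no coordinates or sequences are printed.

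Barcodes under 200 detected genes were dropped, which left 11987, 12062 and 14502 cells. UMIs were summed per library or cluster and scaled to CPM. Levels carry exact Poisson intervals, log2 ratios exact binomial intervals, and shares of cells exact Clopper-Pearson intervals, all at 95% and for counting error only. For a share of cells, a count of 0 was taken to allow up to 3 counts, a rule used in place of the exact interval. Libraries were integrated with Seurat 5.3.0 anchors (2000 variable genes per library, 30 components, resolution 0.8) in R 4.3.3, with the members and the pathway list left out of the variable genes. Clusters were named where at least 3 markers of a type were raised 2-fold (10 CPM added to both levels) and 1 stood among the 10 leading genes. These naming limits were set after the clusters were seen. Scrublet (scanpy 1.11.5) called 0, 1 and 0 doublets by its own threshold, which has not worked, so doublets stayed in, and removal of the highest 5% of scores was an alternative. Log2 ratios and their intervals were tried on simulated Poisson counts for catagen over anagen. Such counts carry only the counting error that the intervals assume, so this says nothing about differences between cells or animals. Intervals of levels and of shares were not tried. The 5 early genes were grouped after the data were seen.

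Named were members at 20 CPM or more in any library, members past 2-fold between any libraries at a mean of 1 CPM or more, and members at least 4-fold higher in a compartment in every library (at least 50 cells and 30 UMIs). Of the pathway list, at most the 3 highest and 3 lowest past 2-fold per contrast were taken. Other genes named were chosen after their values were seen. The members and lists were chosen with earlier results of these data known. Alternatives covered scaling, cell filters, doublets, the minimum level, resolution, clustering of each library alone and thinning.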

Additional observations from a re-analysis of the deposited data

Results flagged for a closer look

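In 8 comparisons a member was at least 2-fold higher in the later library in one cluster and at least 2-fold lower in another, with both counting intervals clear of 0. With 1 library per stage the difference between the clusters was not tested, and these pairs were looked for over all members and clusters. In telogen over anagen, BTC stood at 2.15 in the mitotic cells of cluster 10 and at -1.64 in the suprabasal cells of cluster 0. FGF21 stood at 1.27 in the inner root sheath and at -1.39 in the hair cortex, so the 2 classes that share this gene went opposite ways. FGF22 stood at 2.47 in cluster 11, from 8 and 94 UMIs, and at -2.22 in the mitotic cells of cluster 10.

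In catagen over anagen, EREG stood at 2.36 in cluster 11 and at -1.83 in cluster 0. ERRFI1 stood at 1.43 in the SPARC LHX2 follicle cells of cluster 14 and at -1.17 in cluster 0, and FGF22 at 2.67 in cluster 11 and -1.57 in the KLK SPINK keratinocytes. HBEGF stood at 1.49 in the sebaceous and lipid cells and at -4.38 (-9.72 to -1.82) in the DCN DPP4 cells, where catagen had 1 UMI. In telogen over catagen, DUSP10 stood at 1.29 in the SPARC LHX2 cells of cluster 4 and at -1.59 in those of cluster 14.

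Cluster 22, led by MMP7 and MGP, held 33, 49 and 44 cells in anagen, catagen and telogen and so was left out of the comparisons, yet it carried 2 ligands. FGF7 was 148, 147 and 164 CPM there, above every other cluster in all 3 libraries. EREG was 364, 132.5 and 89.8 CPM, above every other cluster in anagen and telogen, while in catagen clusters 19 and 11 were higher. The mesenchymal markers of this cluster summed to 2.70 CPM in anagen and to 0 in catagen and telogen.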

How the results depend on the processing

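No paired analysis was possible because each stage has 1 library. Of 40 ratios of members past 2-fold, 26 stayed past it under each of 8 alternatives. With the cluster makeup held equal, the catagen over anagen ratio of FGF18 turned to -0.54. This alternative leaves out clusters under 50 cells in any of the 3 libraries, and so leaves out cluster 16, which held 46 cells in anagen. With median-of-ratios scaling, catagen over anagen had 5 members lower (3 with CPM), beside 5.64% of all genes. Telogen over anagen then had 1 higher (0) and 8 lower (13), beside 5.0% and 6.86% of all genes. Telogen over catagen had 10 lower (16), beside 8.04%. At a mean of at least 5 CPM, where 20 members were left, catagen over anagen had 1 higher (5), beside 4.36% of all genes. Telogen over anagen had 8 lower, beside 7.67%, and telogen over catagen 10 lower, beside 11.8%. With at least 1000 genes per cell, telogen over anagen had 1 higher, beside 3.03% of all genes. The named class with the highest level was the same in all 3 libraries for 7 members, and for 14 at resolution 0.4 and 12 at resolution 1.2. Of 23 pairs of member and class, 17 were kept of the 21 that could be looked at with resolution 0.4, 17 of 23 with resolution 1.2, and 14 of 18 with each library clustered alone. DUSP6, DUSP16 and FGF5 in the KLK SPINK keratinocytes were lost at both other resolutions, and DUSP10, FGFRL1 and SPRY1 in the SPARC LHX2 follicle cells at resolution 1.2. Pairs were matched by class name, and at resolution 0.4 the KLK SPINK name fell on a far larger cluster led by KRT79 and KLK7. The share of cells with a UMI of FGFR3 was 24.9, 33.2 and 13.5% among cells of at least 3000 UMIs thinned to 3000. Among all kept cells without thinning it was 40.4, 37.4 and 24.4%, where anagen stood above catagen. Free RNA was not removed from the counts, and levels of clusters with few cells rest on few UMIs.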
